A study of Homo sapiens with 6 samples.

Results

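The transcripts of the mitochondrial genome were examined in KO52 cells that expressed a peptide blocking C/EBP factors, a peptide blocking FOS and its partners, or neither. All 37 genes of the mitochondrial chromosome were taken, by a symbol starting with MT- on that chromosome, out of 60612 gene IDs in each count table. They comprised 13 messenger RNAs (mRNAs), 2 ribosomal RNAs (rRNAs) and 22 transfer RNAs (tRNAs). Mitochondrial pseudogenes on nuclear chromosomes were left out.

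The human mitochondrial genome is a small circle that is transcribed in both directions into long RNAs spanning many genes. One direction yields both rRNAs, most tRNAs and every mRNA but one, and these are called heavy-strand transcripts here. The opposite, light-strand transcript yields MT-ND6 and the remaining tRNAs. The long RNAs are cut largely at the tRNAs that lie between the other genes, and each product is then modified, polyadenylated or degraded at its own rate. The mRNAs encode subunits of the respiratory chain and of ATP synthase, and the rRNAs and tRNAs serve the mitochondrial ribosome. Acute myeloid leukemia cells are known to rely on mitochondrial respiration.

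KO52 is an established acute myeloid leukemia line labelled as a double mutant of CEBPA. Every group carried a doxycycline-inducible lentiviral pCW57.1 vector, and per the study's methods the cells were treated with doxycycline and sorted for green fluorescent protein. The dnCEBP and dnFOS groups expressed peptides that pair with members of the C/EBP or AP-1 family and keep them off DNA, while the control group carried an empty vector (EV). Each of the 3 groups held 2 libraries, 6 in all, and no source says whether the 2 libraries of a group came from separate cultures, so p-values measure the spread between these libraries, which may be technical. Neither the dose of doxycycline for these libraries nor whether the cells were a pool or a clone was found in the labels. The comparisons with EV ask what changes when either family is blocked, and the comparison of the peptides asks where their effects differ.

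Total counts ran from 21681121 to 27663179 in the EV and dnCEBP libraries and were 14583615 and 9862994 in dnFOS. At an equal share of counts, the counting error was thus largest in dnFOS. A count of 3 was worth between 0.108 and 0.304 scaled counts (CPM, counts scaled to library size). Such floors, and the intervals given for shares, reflect counting error alone, because reads copied by PCR carried no molecular tag. All 7 myeloid blast markers exceeded 1 CPM in every library, with a summed level of 900 to 958 CPM in EV, 845 to 866 in dnCEBP and 722 to 736 in dnFOS. Single markers moved in both directions in dnCEBP, which the sum does not show. PTPRC, its largest part, had 401 and 398 CPM in EV and 470 and 512 in dnCEBP, and CD34 was also higher. SPI1 had 27.0 and 22.8 CPM in EV and 19.0 and 11.6 in dnCEBP, and others, among them LYZ, were also lower. MS4A1 and DCN, which mark B cells and fibroblasts, were at 0 in every library. The T cell sum of 91.8 to 149 CPM was nearly all CD3D, and CD3E was at or below 0.183 CPM. Libraries also differed in abundant nuclear RNAs. The signal recognition particle RNA RN7SL1 held 7.75% to 7.94% of counts in EV and dnCEBP but 6.12% and 4.31% in dnFOS. The non-coding gene FP236383.3 on chromosome 21 held 0.0114% and 0.163% in EV, 0.285% and 1.32% in dnFOS, and 0.00396% and 0.102% in dnCEBP. It was thus highest in dnFOS and, within each group, higher in the replicate 2 library. The part of these shifts in the results below was not tested.

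Sequences from the GENCODE 29 transcripts on GRCh38 are printed where they bear on how reads can be counted. The starts of MT-ND6 (chrM:14614-14673, minus strand), MT-ND5 (chrM:12337-12396, plus strand) and MT-CYB (chrM:14747-14806, plus strand) show the base composition that sets the light-strand mRNA apart from its heavy-strand neighbours. Each is given 5′ to 3′ with G in capitals.
MT-ND6: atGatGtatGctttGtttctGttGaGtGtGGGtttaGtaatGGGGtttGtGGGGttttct
MT-ND5: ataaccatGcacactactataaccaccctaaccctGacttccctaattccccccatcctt
MT-CYB: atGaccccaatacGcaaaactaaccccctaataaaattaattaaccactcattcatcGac
These 60 bases held 21 G in MT-ND6, 2 in MT-ND5 and 3 in MT-CYB. Over the whole gene, G made up 35.6% of MT-ND6 and 6.28% to 16.2% of the 12 heavy-strand mRNAs. MT-ND6 lies between MT-ND5 and MT-CYB, on the opposite strand.

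A pair of genes shares bases on the same strand at chrM:8527-8572. The end of MT-ATP8 (chrM:8497-8572) and the start of MT-ATP6 (chrM:8527-8602) are shown with the 46 shared bases in capitals, because a read lying in them belongs to both genes.
MT-ATP8: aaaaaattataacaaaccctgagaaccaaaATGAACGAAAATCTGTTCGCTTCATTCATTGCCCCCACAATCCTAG
MT-ATP6: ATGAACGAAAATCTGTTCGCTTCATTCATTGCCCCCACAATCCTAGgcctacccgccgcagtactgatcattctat
MT-ND4L and MT-ND4 share 7 bases in the same way (chrM:10760-10766). How the authors' counting treated reads in shared bases was not stated, so the counts of these pairs are less certain than the others.

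The tRNA genes MT-TT (chrM:15888-15953, plus strand) and MT-TP (chrM:15956-16023, minus strand) lie side by side after MT-CYB. They are shown whole because the sole called tRNA, MT-TT, has this light-strand neighbour with the next highest tRNA count.
MT-TT: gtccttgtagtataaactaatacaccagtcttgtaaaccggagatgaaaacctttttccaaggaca
MT-TP: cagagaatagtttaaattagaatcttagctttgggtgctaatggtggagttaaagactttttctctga
The tRNA genes were 59 to 75 bases long, no longer than 1 read of 75 bases.

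The mitochondrial genome gave a similar, large share of the counts in every group, and nearly all of it was rRNA. The 37 genes held 25.03% and 24.7% of counts in the EV libraries, 24.8% and 25.7% in dnFOS, and 24.8% and 24.6% in dnCEBP, and the groups overlapped. The rRNAs alone held 24.3% ± 0.26 in EV, 24.4% ± 0.58 in dnFOS, and 24.2% ± 0.10 in dnCEBP (SD, n = 2). Because the libraries were depleted of ribosomal RNA, these are levels left after depletion and not levels in the cells.

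The mRNAs held a small share that did differ between groups. It was 0.576% and 0.608% in the EV libraries, 0.823% and 0.869% in dnFOS, and 0.535% and 0.471% in dnCEBP. The 3 groups did not overlap, with dnFOS highest and dnCEBP lowest. The mean share was 1.43-fold that of EV in dnFOS and 0.85-fold in dnCEBP, and dnFOS was 1.68-fold above dnCEBP. The widest 95% Wilson interval of a single library was 0.00579 percentage points to either side, which covers counting error alone. Between the 2 libraries of a group the SD was larger, at 0.023 percentage points in EV, 0.033 in dnFOS and 0.045 in dnCEBP. In an exact two-sided permutation test each of the 3 differences had p = 0.333, the smallest p that 2 against 2 libraries can give (0.5625 adjusted over the 27 tests of class measures). In bulk RNA, fewer cells of a type and less RNA per cell cannot be told apart, nor can fewer mitochondria and less RNA per mitochondrion.

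The number of rRNA counts per mRNA count followed from both shares. It was 42.4 and 39.6 in EV, 29.2 and 28.6 in dnFOS, and 45.4 and 51.2 in dnCEBP, with no overlap between the groups. MT-RNR2 counts per MT-RNR1 count were 10.4 and 9.08 in EV, 9.42 and 8.62 in dnFOS, and 10.2 and 10.8 in dnCEBP. For this ratio both peptide groups overlapped EV.

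**Figure D1:**
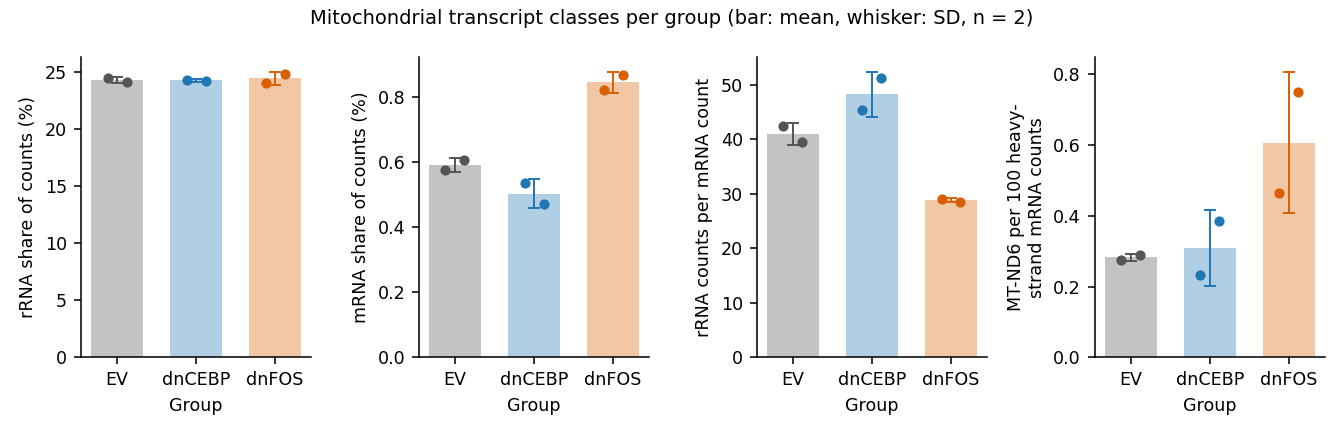
Measures of the mitochondrial transcripts in each group, from left the rRNA share of counts (%), the mRNA share of counts (%), the rRNA counts per mRNA count and the MT-ND6 counts per 100 heavy-strand mRNA counts. Points are the 2 libraries, bars the group mean and whiskers the SD. The rRNA share lies near 24% throughout, while the mRNA share is lowest in dnCEBP and highest in dnFOS, at 0.823% and 0.869%.

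Levels of the mRNAs differed widely at the start. On the scale of CPM per kilobase of gene length, MT-CO3 was highest in EV with 2610 ± 17.1 (SD, n = 2), followed by MT-CO1 with 1391 ± 9.07 and MT-CO2 with 1036 ± 49.4, and these encode the core subunits of cytochrome c oxidase (complex IV). MT-ND3 followed with 571 ± 53.7 and MT-ATP6 with 370.4 ± 44.0. The order of these 5 was the same in all 6 libraries. The lowest levels were those of the complex I mRNAs MT-ND2 (36.1 ± 1.51), MT-ND6 (32.3 ± 1.995) and MT-ND5 (26.6 ± 4.14), so that MT-CO3 stood 98.2-fold above MT-ND5. Between neighbours in this order, MT-ND4L overlapped MT-ATP8 and MT-ATP8 overlapped MT-ND4 in EV, and the other neighbours did not overlap. Stretches of 75 bases that also occur in nuclear transcripts made up 34.4% of those in MT-ND2 and 36.6% in MT-CO1. Reads from them may be dropped or split, and their part in this order was not tested. MT-RNR2 reached 143733 ± 4512 and MT-RNR1 24240 ± 1502 CPM per kilobase. The 3 complex IV mRNAs made up 78.1% to 83.9% of the mRNA counts of each library.

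**Figure D2:**
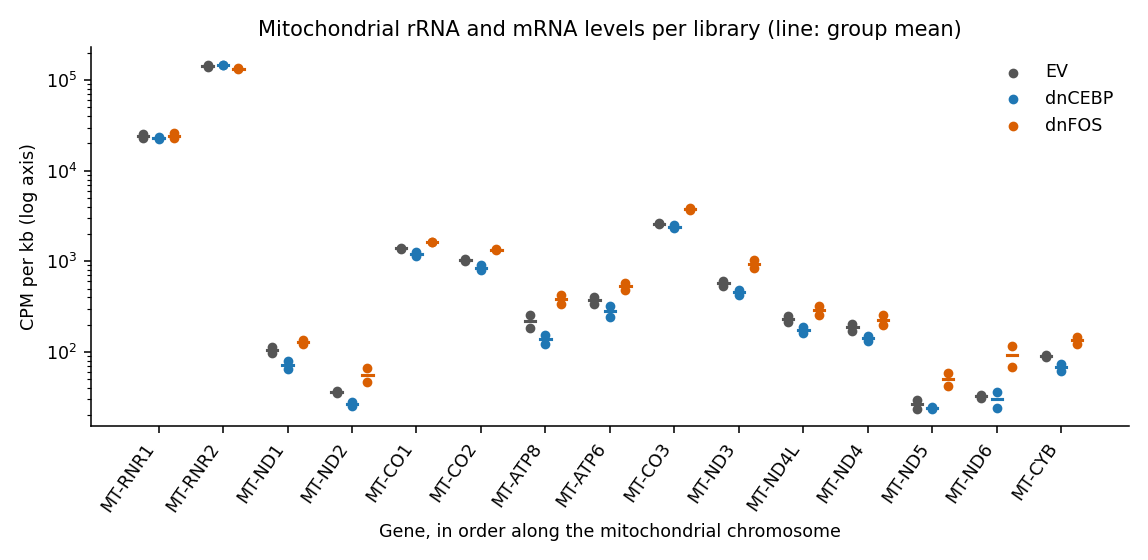
CPM per kilobase of gene length, on a log axis, for both rRNAs and the 13 mRNAs in their order along the mitochondrial chromosome. Each point is a library, coloured by group, and each line a group mean. The dnFOS points lie above the dnCEBP points for every mRNA and beside them for the rRNAs.

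Differences of single genes were tested with edgeR's quasi-likelihood test over 15395 genes, and a gene was called at a Benjamini-Hochberg adjusted p under 0.05. All 13 mRNAs, both rRNAs and 11 tRNAs passed the filter on low counts, 26 of 37 genes. In dnFOS against EV, 11 of the 13 mRNAs were called higher and none lower, with 12 members called in all. Over all genes, 15.0% were called, and 7.24% were called higher. All 13 mRNAs had a positive log2 fold change, with a median of 0.54 and a range of 0.23 to 1.51, while the median over all genes was 0.004. In 12 of the 13 both dnFOS libraries lay above both EV libraries, against 28.3% of all genes (56.7% in either direction), and the exception was MT-ND4. The mRNAs cut from shared precursors are not independent of each other.

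In dnCEBP against EV the mRNAs lay on the other side. All 13 had a negative log2 fold change, with a median of -0.40 and a range of -0.67 to -0.11, against -0.002 over all genes. Of these, 2 were called lower, MT-ND1 and MT-CYB, and none higher. Of all genes 1.07% were called, 0.624% higher and 0.448% lower. An unadjusted edgeR p under 0.05 was reached by 10 of the 13, a count without a share of all genes to set it against. In 11 of the 13 both dnCEBP libraries lay below both EV libraries, against 20.9% of all genes (42.8% in either direction), and MT-ND5 and MT-ND6 overlapped. The count of called members depended on single libraries, including those of dnFOS, which enter only through the shared spread. The number of calls over all genes changed with the library left out as well. With 1 library left out, the median of the 13 mRNAs stayed between -0.49 and -0.28.

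Both peptides were compared with the same EV libraries, so the direct comparison was made as well. In dnFOS against dnCEBP, 13 of 13 mRNAs were higher and called, where 14.7% of all genes were called, 6.83% higher and 7.84% lower. The median log2 fold change was 0.91, with a range of 0.43 to 1.63, and 0.02 over all genes. All 13 mRNAs lay higher in both dnFOS libraries than in both dnCEBP libraries, against 28.6% of all genes (54.5% in either direction). Neither an rRNA nor a tRNA was called in this comparison.

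**Figure D3:**
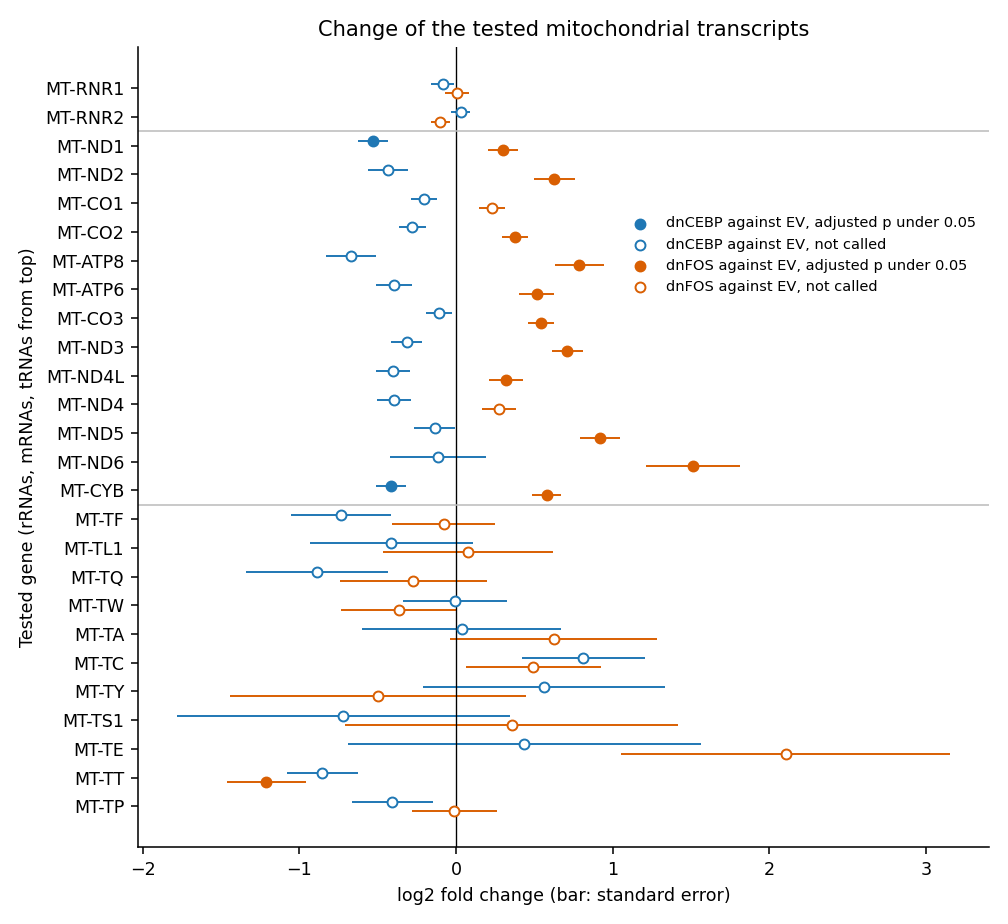
Log2 fold change against EV, with its standard error as a bar, for the 26 tested mitochondrial genes in dnCEBP and dnFOS. Filled points have an adjusted p under 0.05 and open points do not. The mRNAs lie left of 0 in dnCEBP and right of 0 in dnFOS, from 0.23 for MT-CO1 to 1.51 for MT-ND6.

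The rRNAs moved little. MT-RNR1, the RNA of the small mitochondrial ribosomal subunit (ENSG00000211459; chrM:648-1601), had 22111 and 24138 CPM in EV, 21876 and 24598 in dnFOS, and 22240 and 21339 in dnCEBP. Its groups overlapped, and its log2 fold change was -0.09 ± 0.08 in dnCEBP (SE; edgeR adjusted p = 0.716) and 0.007 ± 0.08 in dnFOS (adjusted p = 0.966). MT-RNR2, the RNA of the large subunit (ENSG00000210082; chrM:1671-3229), had 229055 and 219106 CPM in EV, 206010 and 212106 in dnFOS, and 226496 and 231448 in dnCEBP. Both dnFOS libraries lay below the other 4, by 0.10 ± 0.06 on the log2 scale against EV, which was not called (edgeR adjusted p = 0.291). With library totals in place of scaled sizes, this log2 value was near 0 and MT-RNR1 was called higher in dnFOS than in dnCEBP, at 0.21, where the median of all genes was shifted to 0.145.

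Complex I, the entry point for electrons from NADH, has 7 mitochondrial subunits. In dnFOS 6 of these 7 mRNAs were called higher, against 7.24% of all genes. In dnCEBP MT-ND1 alone was called lower, against 0.448% of all genes. All 7 had a negative log2 fold change in dnCEBP, from -0.53 to -0.11. MT-ND1 (chrM:3307-4262) had 93.1 and 108 CPM in EV, 117 and 130 in dnFOS, and 75.9 and 62.7 in dnCEBP. The 3 groups did not overlap. Its log2 fold change was -0.53 ± 0.10 in dnCEBP (edgeR adjusted p = 0.00308) and 0.30 ± 0.10 in dnFOS (adjusted p = 0.0337). The dnCEBP call was lost without EV replicate 2 (-0.43) or dnCEBP replicate 2 (-0.40). The dnFOS call was lost without EV replicate 1 (0.20) or dnFOS replicate 2 (0.23), and with DESeq2 or limma-voom.

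MT-ND3 and MT-ND5 showed firmer rises in dnFOS. MT-ND3 (chrM:10059-10404) had 184 and 211 CPM in EV, 290.0 and 357 in dnFOS, and 169 and 148 in dnCEBP. All 3 groups were apart, with a log2 fold change of 0.71 ± 0.10 in dnFOS (edgeR adjusted p = 1.31e-05) and -0.32 ± 0.10 in dnCEBP (adjusted p = 0.135). MT-ND5 (chrM:12337-14148), the longest mitochondrial mRNA gene, had 42.9 and 53.5 CPM in EV, 76.7 and 106 in dnFOS, and 44.8 and 42.8 in dnCEBP. The dnFOS libraries stood above the other 4, and dnCEBP overlapped EV. Its log2 fold change was 0.92 ± 0.13 in dnFOS (edgeR adjusted p = 0.000101) and -0.14 ± 0.13 in dnCEBP (adjusted p = 0.741).

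The other heavy-strand complex I mRNAs moved in the same order of groups with less margin. MT-ND2 had 36.5 and 38.7 CPM in EV, 48.1 and 68.8 in dnFOS, and 29.05 and 26.5 in dnCEBP, and its dnFOS libraries differed more from each other than those of EV. It rose in dnFOS by 0.63 ± 0.13 on the log2 scale (edgeR adjusted p = 0.00125), a call lost without dnFOS replicate 2 (0.36). MT-ND4L, with 63.0 and 74.8 CPM in EV, 76.7 and 95.8 in dnFOS, and 55.6 and 48.5 in dnCEBP, was called in dnFOS at 0.32 ± 0.11 (adjusted p = 0.0417). Its first dnFOS library was barely above the second EV library, and the call was lost without EV replicate 1 (0.20) or dnFOS replicate 2 (0.16) and with DESeq2 or limma-voom. MT-ND4, which overlaps it, had 236 and 281 CPM in EV, 273 and 353 in dnFOS, and 208 and 184 in dnCEBP, where EV and dnFOS overlapped. Its dnFOS value of 0.27 ± 0.11 was not called (edgeR adjusted p = 0.0981), though it was without EV replicate 2 (0.39) or dnFOS replicate 1 (0.45). Without dnFOS replicate 2 it was 0.08 and without EV replicate 1 it was 0.16, and neither was called. In dnCEBP the 3 genes had log2 values of -0.44, -0.40 and -0.40, and none was called. Each was called lower with the GC and length trend removed, with no low-count filter or with only the 4 libraries compared. None was with DESeq2, limma-voom or library totals. With 1 library left out the values ran from -0.51 to -0.37 for MT-ND2, -0.52 to -0.28 for MT-ND4L and -0.52 to -0.275 for MT-ND4.

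MT-ND6, the only light-strand mRNA, had the largest log2 fold change of the 13 in dnFOS. MT-ND6 (ENSG00000198695; chrM:14149-14673) had 387 and 387 raw counts in EV, 556 and 637 in dnFOS, and 343 and 391 in dnCEBP. Scaled to library size this was 16.2 and 17.7 CPM in EV, 36.2 and 61.6 in dnFOS, and 12.7 and 18.9 in dnCEBP. Both dnFOS libraries stood well above the other 4 but also far from each other, and dnCEBP spanned EV. The log2 fold change was 1.51 ± 0.30 in dnFOS (2.85-fold; edgeR adjusted p = 0.0229), -0.11 ± 0.30 in dnCEBP (adjusted p = 0.927) and 1.63 ± 0.30 between the peptides (adjusted p = 0.0179). The dnFOS call against EV was lost with the trend on GC content and length removed, and without EV replicate 1 (1.45) or EV replicate 2 (1.56). The call between the peptides was also lost without EV replicate 1 (1.63) or EV replicate 2 (1.62).

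The light strand was also set against the heavy strand within each library. MT-ND6 counts per 100 heavy-strand mRNA counts were 0.275 and 0.289 in EV, 0.465 and 0.748 in dnFOS, and 0.232 and 0.384 in dnCEBP. The dnFOS libraries lay above the other 4, with a mean 2.15-fold that of EV and 1.97-fold that of dnCEBP. Without dnFOS replicate 2 the ratio to EV was 1.65-fold. An exact permutation test gave p = 0.333, the smallest possible. Whether the counting used strand was not given in the sources used here, and without strand, reads of MT-ND6 cannot be told apart from reads of the heavy-strand precursor that runs opposite it.

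Complex III has 1 mitochondrial subunit, cytochrome b, encoded by MT-CYB (chrM:14747-15887). MT-CYB had 101 and 106 CPM in EV, 141 and 168 in dnFOS, and 84.0 and 70.9 in dnCEBP. All 3 groups were apart, and MT-CYB was called in all 3 comparisons. Its log2 fold change was -0.42 ± 0.10 in dnCEBP (edgeR adjusted p = 0.0216), 0.58 ± 0.10 in dnFOS (adjusted p = 0.000114) and 0.99 ± 0.10 between the peptides (adjusted p = 1.13e-08). The dnCEBP call was lost without EV replicate 2 (-0.38) or dnCEBP replicate 2 (-0.30).

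Of the complex IV mRNAs, which had the highest levels per length, MT-CO2 and MT-CO3 were called higher in dnFOS. Of all genes 7.24% were called higher there. MT-CO1 also had a positive value but was not called. MT-CO1 (chrM:5904-7445), the catalytic core, had 2135 and 2155 CPM in EV, 2525 and 2509 in dnFOS, and 1961 and 1768 in dnCEBP. The groups did not overlap, but neither comparison with EV was called, at 0.23 ± 0.08 in dnFOS (edgeR adjusted p = 0.0573) and -0.20 ± 0.08 in dnCEBP (adjusted p = 0.311). The dnFOS value was called without either dnCEBP library (0.23 both times) and with DESeq2, limma-voom or library totals.

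MT-CO2, which takes electrons from cytochrome c, had 685 and 732 CPM in EV, 904 and 936 in dnFOS, and 618 and 551 in dnCEBP. It rose in dnFOS by 0.38 ± 0.09 (edgeR adjusted p = 0.00316), a call lost without EV replicate 1 (0.33). MT-CO3 (chrM:9207-9990) had 2056 and 2037 CPM in EV, 2925 and 3030 in dnFOS, and 1972 and 1821 in dnCEBP. Its groups were apart with close replicates, and it rose in dnFOS by 0.54 ± 0.08 (edgeR adjusted p = 4.05e-05). In dnCEBP, MT-CO2 and MT-CO3 had log2 values of -0.28 and -0.11, and neither was called.

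The ATP synthase mRNAs MT-ATP6 and MT-ATP8 rose in dnFOS. MT-ATP6, which encodes a subunit of the proton channel, had 231 and 273 CPM in EV, 332 and 388 in dnFOS, and 217 and 166 in dnCEBP. MT-ATP8 had 38.0 and 53.3 CPM in EV, 70.1 and 87.9 in dnFOS, and 31.5 and 25.6 in dnCEBP. For both genes the 3 groups were apart, with the lowest values in dnCEBP. The dnFOS log2 fold change was 0.51 ± 0.11 for MT-ATP6 (edgeR adjusted p = 0.00494) and 0.79 ± 0.16 for MT-ATP8 (adjusted p = 0.00417). The MT-ATP6 call was lost without dnFOS replicate 2 (0.40) and with DESeq2. In dnCEBP, MT-ATP8 had the most negative value of the 13 mRNAs, -0.67 ± 0.16, which was not called (edgeR adjusted p = 0.0688) but was without EV replicate 1 (-0.90), dnCEBP replicate 1 (-0.83), or either dnFOS library. Without EV replicate 2 it was -0.41 and without dnCEBP replicate 2 it was -0.53, and neither was called.

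Within groups, the mRNAs also shifted together between replicates. In EV, 12 of 13 had a higher CPM in replicate 2, with a median log2 ratio of 0.19, and in dnFOS 12 of 13, with a median of 0.30. In dnCEBP only MT-ND6 was higher in replicate 2, and the median was -0.18. The exceptions were MT-CO3 in EV and MT-CO1 in dnFOS. A shift of 1 library therefore moved nearly all mRNAs at once, which is the spread against which the group differences stand. FP236383.3 was also higher in replicate 2 of EV and of dnFOS, and likewise in dnCEBP, where the mRNAs were lower, and its part was not tested.

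Nuclear copies of mitochondrial DNA could share reads with the mRNAs. Of all 75-base windows of MT-CO1, 36.6% occurred unchanged in an annotated nuclear transcript, as did 34.4% of those of MT-ND2 and 28.01% of those of MT-ATP6. For MT-ND3, MT-ATP8, MT-ND4, MT-ND4L and MT-CYB no window did. The 6 mRNAs with under 1% shared windows had dnFOS log2 fold changes of 0.27 to 0.92 and dnCEBP values of -0.67 to -0.14. The 6 mRNAs with over 10% had dnFOS values of 0.23 to 0.63 and dnCEBP values of -0.53 to -0.11, and the part of shared reads in the results was not tested. The copies on chromosome 1 were 97.6% to 99.1% identical to the genes they copy. MTATP6P1 held 288 to 496 counts per library, 7.82 to 8.55 per 100 counts of MT-ATP6, and MTND2P28 held 89 to 126 counts, 10.5 to 21.4 per 100 counts of MT-ND2. By group, MTND2P28 held 103 and 89 counts in EV, 122 and 94 in dnFOS, and 126 and 117 in dnCEBP. MT-ND2 held 869 and 845, 738 and 712, and 785 and 548 counts in the same order. All 396 nuclear mitochondrial pseudogenes together held 0.482 to 0.614 counts per 100 member mRNA counts.

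The tRNAs were barely covered. All 22 together held 0.00156% to 0.00253% of the counts of a library. Among the 11 that passed the filter, the total over 6 libraries ran from 30 for MT-TE to 577 for MT-TT. Of the 14 heavy-strand tRNAs 4 passed, and of the 8 light-strand tRNAs 7 passed. The strand is that of the annotated gene, since whether the counting used strand was not given. The other 11 had at most 11 counts in any library, and MT-TD and MT-TK were at 0 in all 6, which allows up to 3 counts a library, or 0.304 CPM in the shallowest. Counts at this depth, from RNAs shorter than a read, may come from precursors as well as from mature tRNAs, and these cannot be told apart.

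MT-TT, the threonine tRNA that follows MT-CYB on the heavy strand, was the 1 tRNA called. It had 176 and 140 counts in EV, 49 and 28 in dnFOS, and 116 and 68 in dnCEBP. This was 7.38 and 6.41 CPM in EV, 3.19 and 2.71 in dnFOS, and 4.29 and 3.28 in dnCEBP, and the 3 groups did not overlap. MT-TT fell in dnFOS by 1.21 ± 0.25 on the log2 scale (0.432-fold; edgeR adjusted p = 0.0015), where 7.76% of all genes were called lower. Its dnCEBP value was -0.86 ± 0.23, which was not called (edgeR adjusted p = 0.0623) but was without either dnFOS library (-0.86 both times). The peptides did not differ by the test, at -0.36 ± 0.27 (adjusted p = 0.419). In dnFOS MT-TT was thus lower while MT-CYB, the gene next to it, was higher.

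The other tested tRNAs were not called in any comparison. MT-TP, the proline tRNA on the opposite strand beside MT-TT, had 3.31 and 5.08 CPM in EV, 3.91 and 4.45 in dnFOS, and 3.26 and 3.04 in dnCEBP. Its dnFOS value was -0.01 ± 0.27 (edgeR adjusted p = 0.985), and dnFOS lay within the range of EV. MT-TF, the phenylalanine tRNA at the start of the heavy-strand transcript, had 2.22 and 4.30 CPM in EV and 3.06 and 3.09 in dnFOS, again within EV. MT-TC, the cysteine tRNA, was higher in both dnCEBP libraries (1.998 and 2.37 CPM) than in EV (0.797 and 1.69), at 0.81 ± 0.39 (adjusted p = 0.412). Summed by strand, the heavy-strand tRNAs held 15.2 and 15.0 CPM in EV, 10.1 and 9.17 in dnFOS, and 10.1 and 9.31 in dnCEBP, and MT-TT made up the larger part of this difference. The light-strand tRNAs held 6.45 and 10.6 CPM in EV, 8.98 and 10.0 in dnFOS, and 8.43 and 7.04 in dnCEBP, and their groups overlapped. As for MT-ND6, without strand the tRNA reads cannot be told apart from reads of the precursor that runs opposite them.

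Mitochondrial transcripts are made and processed by nuclear-encoded proteins, and a list of 53 such genes was examined, of which 52 were tested (MRM2 was not). In dnFOS against EV 6 were called, 5 higher and 1 lower, which is 11.5% of the list where 15.0% of all genes were called. With library totals 6 were called higher and none lower. The median log2 fold change over the list was 0.02. TFAM, which packages mitochondrial DNA and starts its transcription, had 76.8 and 67.7 CPM in EV, 102 and 104 in dnFOS, and 73.7 and 78.9 in dnCEBP. Both dnFOS libraries were above the other 4, and TFAM rose in dnFOS by 0.51 ± 0.09 (edgeR adjusted p = 0.000246). POLRMT, the mitochondrial RNA polymerase, had 13.2 and 10.3 CPM in EV and 12.2 and 7.73 in dnFOS, and was not called (-0.21 ± 0.21, edgeR adjusted p = 0.553). Its sign turned without dnFOS replicate 2 (0.05) and with the GC and length trend removed (0.09). TEFM, also listed under transcription, had the lowest log2 value of the list in dnFOS, -0.57 ± 0.21, and was not called (edgeR adjusted p = 0.0652). It had 7.09 and 9.06 CPM in EV, 5.60 and 5.22 in dnFOS, and 7.99 and 8.06 in dnCEBP.

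Genes that act on the transcripts gave small changes. TRMT10C, a subunit of the enzyme that cuts the 5′ end of mitochondrial tRNAs, rose in dnFOS by 0.49 ± 0.12 (edgeR adjusted p = 0.0066), from 22.4 and 21.98 CPM in EV to 31.3 and 31.2. MTPAP, the mitochondrial poly(A) polymerase, rose by 0.39 ± 0.12 (adjusted p = 0.0327). The RNA-binding proteins FASTKD1 and FASTKD2 rose by 0.32 ± 0.11 and 0.33 ± 0.11 (adjusted p = 0.0406 and 0.0383). TOP1MT, the mitochondrial topoisomerase I, fell by 0.50 ± 0.14 (adjusted p = 0.0135). Among these 6, TFAM stayed called without each library in turn. TRMT10C was not called without EV replicate 2 (0.47). MTPAP was not called without EV replicate 1 (0.35), EV replicate 2 (0.41) or dnFOS replicate 2 (0.26), nor with DESeq2, limma-voom or the GC and length trend removed.

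FASTKD1 was not called in dnFOS without EV replicate 1 (0.21), dnFOS replicate 1 (0.28) or dnFOS replicate 2 (0.35). FASTKD2 was not called without EV replicate 1 (0.41), EV replicate 2 (0.23) or dnFOS replicate 2 (0.30), and TOP1MT was not called without EV replicate 1 (-0.41) or dnFOS replicate 1 (-0.39). With the GC and length trend removed, the log2 values were 0.08 for FASTKD1, 0.04 for FASTKD2 and -0.33 for TOP1MT, and none of these was called. LRPPRC, which stabilizes mitochondrial mRNAs, had 379 and 369 CPM in EV, 369 and 374 in dnFOS, and 338 and 365 in dnCEBP. Its dnFOS value was -0.01 ± 0.08 (edgeR adjusted p = 0.959), and 0.09 with library totals.

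In dnCEBP against EV none of the 52 tested genes of this list was called by edgeR, DESeq2 or limma-voom. The list's median log2 fold change was -0.01. In dnFOS against dnCEBP 5 were higher and none lower, 9.62% of the list where 14.7% of all genes were called. These were TRMT5, which modifies tRNAs (0.63 ± 0.20), TWNK, the mitochondrial DNA helicase (0.61 ± 0.15), FASTKD1 (0.47 ± 0.11), MTPAP (0.44 ± 0.12) and TFAM (0.43 ± 0.09). Without dnFOS replicate 2, 2 of the 5 were called, TFAM and FASTKD1, while TRMT5 (0.46), TWNK (0.55) and MTPAP (0.31) were not. TRMT5 (0.435) and MTPAP (0.29) were also not called without dnCEBP replicate 1, nor TWNK without dnCEBP replicate 2 (0.495), and TRMT5 was not called with DESeq2. Without dnFOS replicate 1, 8 were called, 6 higher and 2 lower. With the GC and length trend removed 9 were called, 6 higher and 3 lower, and with library totals 10, all higher. Of all genes, 2674 and 2815 were called in these settings, where 2259 were called in the main comparison.

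**Figure D4:**
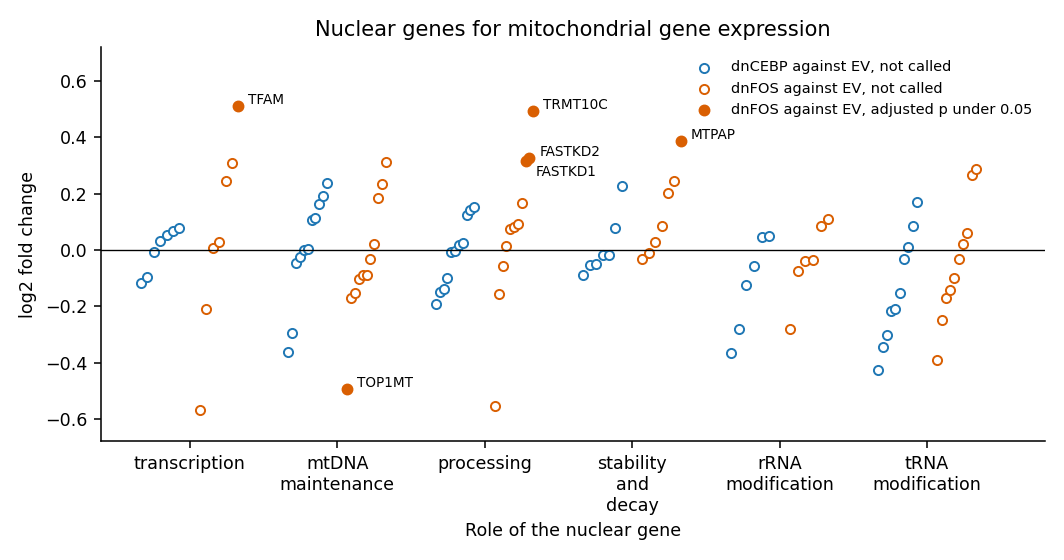
Log2 fold change against EV of 52 nuclear genes for mitochondrial gene expression, grouped by role, for dnCEBP and dnFOS. Filled, named points have an adjusted p under 0.05. The changes run from -0.57 to 0.51 in dnFOS and are spread on both sides of 0, unlike the mitochondrial mRNAs, which lie on 1 side.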

How the data were processed

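The 6 KO52 libraries, 2 per group, were grouped by their titles. Per the labels, total RNA was depleted of ribosomal RNA, amplified with 15 cycles of PCR and sequenced as paired-end reads of 75 bases. The labels also name an oligo(dT) reverse transcription, without saying for which assay. The deposited values were raw counts per gene, 1 table per library. Trimmomatic, HISAT2, featureCounts, Subread and hg38 are named in the submitters' processing notes. The annotation, the strand setting and the treatment of reads matching several places or genes were not given in the sources used here. Such reads may be dropped or split, which affects genes with nuclear copies or shared bases.

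Gene IDs were matched to GENCODE 29 on GRCh38 (58394 of 60612), which gave symbols, coordinates and sequences. The 37 members are the rule's. Members and gene lists were chosen with earlier results of these data known. The list of 53 nuclear genes and the markers were written by hand by role.

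The tests used edgeR 4.0.16 (R 4.3.3). filterByExpr (minimum count 10) left 15395 of 27870 genes with a count, and these took 99.889% or more of every library. TMM factors ran from 0.956 to 1.05. A robust quasi-likelihood model of the 3 group means took in all 6 libraries, with 3 residual degrees of freedom, and 3 contrasts were tested two-sided with Benjamini-Hochberg adjustment over all genes tested. CPM values use scaled library sizes, and shares use total counts. Class measures were compared by exact permutation with scipy 1.17.1. Identity to nuclear copies was taken from local alignments with biopython 1.88. The counts of the 2 libraries of each group differed by more than sampling noise (chi-square per degree of freedom of 8.27 to 15.8). All members and up to 8 called list genes per comparison with EV were to be named. POLRMT, TEFM, LRPPRC and the genes called between the peptides were named after their values were seen. Alternatives were median-of-ratios factors, library totals, scaling by nuclear genes, no filter, a mean of at least 1 CPM, the 4 libraries compared, DESeq2 1.42.0, limma-voom (limma 3.58.1), a GC and length trend removed, the replicate block and each library left out. The scripts were tested on simulated data. One marker is not reported here.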

Additional observations from a re-analysis of the deposited data

How the results depend on the processing

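The median log2 fold change of the mRNAs kept its sign in every setting, with -0.42 to -0.38 in dnCEBP against EV, 0.53 to 0.64 in dnFOS against EV and 0.89 to 1.03 between the peptides. With each library left out these ranges were -0.49 to -0.28, 0.40 to 0.62 and 0.73 to 1.09. No single mRNA turned sign in dnFOS against EV or between the peptides, over 221 values each. In dnCEBP against EV, 2 of 221 did, as listed at the end of this part. Library totals alone moved the median of all genes to 0.10 in dnFOS against EV and to 0.145 between the peptides.

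Counts of called members were less stable in dnCEBP against EV, where 2 members and 165 of all genes were called. The count of members was 8 with the GC and length trend removed (264 of all genes). It was also 8 with no low-count filter (255 of 27870 genes) or with only the 4 libraries compared (297 of all genes). It changed with 1 library left out as well. In dnFOS against EV it was 12, with 10 to 14 over the alternatives and 8 to 13 with 1 library left out, and between the peptides 13, with 13 to 14 and 12 to 13. List genes called in dnFOS against EV numbered 6, 3 with DESeq2, and 2 to 6 with 1 library left out. Between the peptides they numbered 5, 9 with the GC and length trend removed, 10 with library totals alone, and 2 to 8 with 1 library left out. The cause of these changes was not tested.

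Deviations of same-numbered libraries correlated with r of 0.0174, 0.0281 and 0.0879 over 15395 genes. Counting noise enters these values, so they cannot show whether the replicate numbers pair the libraries. Over all genes, the replicate block gave 488 calls in dnCEBP against EV, where 165 were made without it. In dnFOS against EV it gave 3172 where 2309 were made, and between the peptides 3013 where 2259 were. With the replicate block, 9 members were called in dnCEBP against EV, alone or with the GC and length trend removed, 13 in dnFOS against EV and 13 between the peptides, and MT-ATP6 was no longer called in dnFOS against EV. List genes called in dnFOS against EV numbered 9 with the block, 5 higher and 4 lower, and 4 with the block and the trend removed, and between the peptides 9 with either.

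Sign changes were found in values that were not called. With the GC and length trend removed, the log2 value in dnCEBP against EV was -0.0871 for FASTKD2 (-0.0848 with the block as well), -0.058 for MT-RNR2 (-0.0571 with the block) and -0.00312 for TFAM (-0.000127 with the block), and FASTKD2 was at -0.00664 with library totals. POLRMT was at 0.124 with the trend removed and 0.12 with block and trend in dnCEBP, 0.0891 and 0.0708 in dnFOS against EV, and 0.0279 with library totals between the peptides. LRPPRC was at 0.0887 with library totals in dnFOS against EV. MT-TW in dnCEBP was at 0.00372 with DESeq2, 0.0461 with limma-voom, 0.00485 without a filter, 0.044 with the replicate block and 0.0604 with block and trend. MT-TE in dnCEBP was at -0.25 and MT-TS1 at 0.60 with limma-voom. In dnFOS against EV, MT-RNR1 was at -0.00529 without a filter and -0.00181 with only the 4 libraries compared. MT-TF was at 0.0319 with the trend removed, 0.0166 with library totals, 0.0178 with limma-voom and 0.08 with block and trend. MT-TP was at 0.0849 with library totals, 0.023 with limma-voom and 0.0101 with the replicate block, and MT-TL1 was at -0.0469 with limma-voom. With 1 library left out, values in dnCEBP ran from -0.14 to 0.16 for FASTKD2, -0.29 to 0.0242 for MT-ND5, -0.42 to 0.15 for MT-ND6, -0.00687 to 0.0635 for MT-RNR2, -0.18 to 0.20 for MT-TA, -4.36 to 1.96 for MT-TE, -2.90 to 5.28 for MT-TS1, -0.40 to 0.55 for MT-TW, -0.13 to 0.98 for MT-TY, -0.21 to 0.10 for MTPAP, -0.39 to 0.0965 for POLRMT and -0.0172 to 0.17 for TFAM. In dnFOS against EV they ran from -0.0801 to 0.0891 for MT-RNR1, -0.48 to 0.45 for MT-TF, -0.58 to 0.61 for MT-TL1, -0.29 to 0.31 for MT-TP, -0.73 to 0.0199 for MT-TQ, -0.67 to 6.34 for MT-TS1, -0.88 to 0.20 for MT-TW, -5.97 to 0.29 for MT-TY, -0.60 to 0.0537 for POLRMT and -0.0414 to 0.00916 for LRPPRC, and between the peptides from -0.17 to 1.02 for MT-TL1 and -0.48 to 0.18 for POLRMT. Depth limits the tRNAs most, since MT-TE, MT-TS1 and MT-TY had 0 counts in a library.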
